A study of Homo sapiens with 6 samples.

Results

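The genes around AAVS1, the safe-harbour site that carries the EP400 transgene in both complemented lines, were examined for their RNA level. The 10 genes were PPP1R12C, which hosts the site, and its neighbours RDH13, EPS8L1, TNNT1, TNNI3, DNAAF3, SYT5, PTPRH, TMEM86B and PPP6R1. They were matched by symbol to the 60609 genes of the count files, and all 10 were found once and passed the filter on low counts along with 19114 genes in all. The cells were K562, an established human leukaemia line with erythroid features, in which EP400 carries a C-terminal degradation tag (dTAG) at its own locus. The tagged cells were complemented from AAVS1 with either wild-type EP400 (WT) or EP400 lacking the SANT and HD domains, by which it holds TRRAP (Delta-TRRAP). All 6 libraries, 3 per group, were made after 24 h with dTAGV-1 at 500 nM, which removes the tagged protein, and no untreated or uncomplemented cells were analysed here. Each complemented line is 1 clone derived from 1 tagged clone, and both carry a transgene in PPP1R12C. Clone and genotype therefore cannot be told apart, and neither group shows the locus without an insertion. The transgene's promoter, its exact position and the number of AAVS1 copies that carry it are not given in the sources used here.

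AAVS1 lies in the first intron of PPP1R12C on the long arm of chromosome 19. It is widely used for transgenes because an insertion there is usually well tolerated and stays expressed. Its host gene encodes a myosin-binding subunit of protein phosphatase 1, one of a family that directs the phosphatase to myosin light chains. The neighbours have unrelated roles: a pair of troponin genes of striated muscle, a factor that assembles the dynein arms of cilia, a calcium sensor of secretory vesicles, a receptor phosphatase, an actin regulator, a retinol dehydrogenase, a lysoplasmalogenase and a subunit of protein phosphatase 6.

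Reads assigned to genes numbered 39966818 to 42616061 per WT library and 35076835 to 38491513 per Delta-TRRAP library. The mitochondrial share was 3.18% to 3.71% for WT and 5.07% to 6.24% for Delta-TRRAP, and its part in the results was not tested beyond a fit without these genes, which made the same calls among the 10. EP400 itself, whose count adds the tagged locus and the transgene, had a normalized count of 5100 ± 282 in WT and 5520 ± 1172 in Delta-TRRAP (SD, n = 3 each) and did not pass the test (edgeR adjusted p = 0.272). The labels call the cells lymphoblasts. All 9 listed K562 markers passed the filter, of which 2 were called lower (TFRC and LMO2) and 2 higher (HBZ and HBE1), and at an unadjusted p under 0.05 there were 3 lower and 6 higher. Their summed normalized count ranged from 224222 to 226322 for WT and from 132089 to 135761 for Delta-TRRAP, and TFRC made up most of it, at 193716 ± 1923 and 89385 ± 4322 (SD, n = 3 each). Of 5 lymphoid markers 2 passed the filter, neither was called, and MS4A1 had no counts.

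The 10 genes occupied 219.9 kb of GRCh38 chromosome 19, from RDH13, which starts the interval at 55039108, to PPP6R1, which ends it at 55259017. EPS8L1 was the only one on the plus strand. PPP1R12C ran from 55090914 to 55117637, and its first intron in the canonical transcript of GENCODE covered 55112796 to 55117222, which is 4427 bases of intronic sequence. EPS8L1 ended 2.99 kb beyond the 3′ end of PPP1R12C. On the promoter side the next of the 10 genes, TNNT1 (55132698 to 55149206), lay 15.1 kb away. TNNI3 (55151767 to 55157773) and DNAAF3 (55158661 to 55166722) followed at gaps of 2.56 kb and 0.89 kb, and SYT5 (55171196 to 55180289) after a further 4.47 kb.

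Promoter sequences are shown for 3 of the genes that fell and for SYT5, the next listed gene beyond them, which did not pass the test. They are RefSeq sequences on GRCh38.p14, which held 9 of the 10 genes, all but DNAAF3. Each runs 5′ to 3′ up to the annotated start, within the 250 bases before it and outside the exons of coding genes. Capitals mark matches, on either strand, to the TATA box TATAAA, the CCAAT box, the GC box GGGCGG, the cyclic AMP response element TGACGTCA, the E-box CACGTG, the GATA motifs AGATAA and TGATAA, which share their last 5 letters, and the E2F motifs TTTCGCGC and TTTGGCGC.
PPP1R12C (chr19:55117638-55117887, strand minus): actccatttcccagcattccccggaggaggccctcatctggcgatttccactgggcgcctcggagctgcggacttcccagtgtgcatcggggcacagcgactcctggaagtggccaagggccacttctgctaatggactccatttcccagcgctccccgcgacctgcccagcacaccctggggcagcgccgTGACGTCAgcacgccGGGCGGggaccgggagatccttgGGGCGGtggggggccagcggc
TNNT1 (chr19:55149207-55149456, strand minus): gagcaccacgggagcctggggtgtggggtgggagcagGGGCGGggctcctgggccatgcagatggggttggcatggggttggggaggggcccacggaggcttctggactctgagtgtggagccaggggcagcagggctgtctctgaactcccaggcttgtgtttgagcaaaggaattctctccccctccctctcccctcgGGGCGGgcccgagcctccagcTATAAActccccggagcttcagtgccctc
TNNI3 (chr19:55157774-55157982, strand minus): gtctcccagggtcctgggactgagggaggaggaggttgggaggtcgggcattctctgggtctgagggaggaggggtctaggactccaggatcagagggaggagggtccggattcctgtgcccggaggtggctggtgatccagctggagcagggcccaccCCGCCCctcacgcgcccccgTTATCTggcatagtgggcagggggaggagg
SYT5 (chr19:55180290-55180539, strand minus): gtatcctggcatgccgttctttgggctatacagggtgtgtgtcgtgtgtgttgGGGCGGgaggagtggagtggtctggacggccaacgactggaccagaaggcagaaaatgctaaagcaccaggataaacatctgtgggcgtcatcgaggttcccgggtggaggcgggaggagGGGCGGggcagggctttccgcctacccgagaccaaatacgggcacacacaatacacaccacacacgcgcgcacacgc
All 4 held GGGCGG, found in 42.6% of the 35116 RefSeq promoters over the same 250 bases and in 36.9% over the 209 bases shown for TNNI3. The PPP1R12C promoter also held TGACGTCA, found in 1.65% of promoters. TATAAA stood in the TNNT1 promoter and in 10.7% of all. The 209 bases of TNNI3 held AGATAA, found in 7.83% of promoters over that length. Over the full 300-base windows GC content was 71.7% for PPP1R12C, 64.0% for TNNT1 and TNNI3 and 63.0% for SYT5, against a median of 58.7%. The ratio of observed to expected CpG was 0.728 for PPP1R12C and 0.847 for SYT5, and 0.23 for TNNT1 and 0.376 for TNNI3, with a median of 0.579 over all promoters. The promoters of PPP1R12C and SYT5 thus lay above the median of this ratio and those of TNNT1 and TNNI3 below it. RefSeq also held another SYT5 promoter, not shown, at 55179299 to 55179598, with a GC content of 70% and a ratio of 0.764. A match is a run of letters and was not tested as a binding site.

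PPP1R12C, TNNT1, TNNI3 and DNAAF3, which follow one another among the listed genes and lie on the minus strand, fell in Delta-TRRAP. Normalized counts were 3.32-fold lower for PPP1R12C, 2.72-fold for TNNT1, 2.84-fold for TNNI3 and 3.44-fold for DNAAF3. These 4 genes were called lower by edgeR's quasi-likelihood test, where a call needs both an adjusted p up to 0.01 and a 2-fold change or more. Of all genes tested, 22.6% were called, 6.08% lower and 16.5% higher. None of the 10 was called higher by edgeR, DESeq2 or limma-voom, and 0 were higher at an unadjusted p under 0.05. By the adjusted p alone 8 of the 10 were lower, where 27.6% of all genes were. Their log2 fold changes were negative for all 10, with a median of -0.65, beside 0.03 over all genes tested. With libraries scaled by size alone the median over all genes was 0.17, and SYT5 then had 0.00 while the other 9 stayed negative.

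PPP1R12C (ENSG00000125503.13) had normalized counts of 114, 121 and 95.5 in the WT libraries and 43.0, 16.2 and 40.1 in the Delta-TRRAP libraries. The groups did not overlap, and the second Delta-TRRAP library lay well below the other two. On the log2 scale it changed by -1.72 ± 0.23 (SE, edgeR adjusted p = 7.98e-06). These values rest on few reads: 111, 125 and 93 in WT, and 44, 17 and 38 in Delta-TRRAP. For the library with 17 reads the exact 95% Poisson interval was 9.90 to 27.2, which met that of the library with 38 reads (26.9 to 52.2) only at its edge. These intervals cover counting error only. Without that library the log2 fold change was -1.38, and without the first Delta-TRRAP library it was -1.96.

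TNNT1 (ENSG00000105048.17), which encodes the tropomyosin-binding troponin of slow skeletal muscle, was the most abundant of the 10. Its normalized counts were 8848, 8839 and 8362 in WT and 3436, 2976 and 3170 in Delta-TRRAP. Every Delta-TRRAP library was thus far below every WT library, with a log2 fold change of -1.42 ± 0.06 (SE, edgeR adjusted p = 1.03e-11). TNNI3 (ENSG00000129991.13), the inhibitory troponin of heart muscle, gave 683, 640.4 and 647 in WT and 249, 210.1 and 233 in Delta-TRRAP. Its log2 fold change was -1.48 ± 0.08 (SE, edgeR adjusted p = 1.86e-10), and the groups again stood apart. DNAAF3 (ENSG00000167646.13), needed to assemble ciliary dynein arms before they enter the cilium, had normalized counts of 443, 451 and 394 in WT and 131, 121 and 123 in Delta-TRRAP. The change of -1.76 ± 0.09 (SE, edgeR adjusted p = 2.30e-10) on the log2 scale differed from that of PPP1R12C by less than the SE of the latter.

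Striated muscle and multiciliated cells, the usual sites of these 3 genes, left little other trace. Of 11 muscle markers, 3 were abundant enough to test, of which edgeR called 0 (1 was higher at an unadjusted p under 0.05), and MYL2 and MYOD1 had no counts in any library. Their summed normalized count ran from 70.4 to 74.9 among WT libraries and from 107 to 120.2 among Delta-TRRAP libraries, and most of it was ACTN2, at 50.5 ± 3.79 and 87.0 ± 3.46 (SD, n = 3 each). The part of muscle-like expression in the troponin result was not tested. Of 7 markers of multiciliated cells, 1 was tested, DNAH5, a dynein heavy chain gene, which was called higher from 1.02 ± 1.77 to 9.76 ± 4.37 normalized counts (SD, n = 3 each; edgeR adjusted p = 0.0019). The sum over these markers ran from 3.86 to 6.16 among WT libraries and from 20.5 to 29.6 among Delta-TRRAP libraries. The noncoding entry of CCDC39 had no counts. Its protein-coding entry, too sparse to test, had 0.342 ± 0.591 normalized counts in WT and 2.63 ± 1.03 in Delta-TRRAP (SD, n = 3 each).

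**Figure D1:**
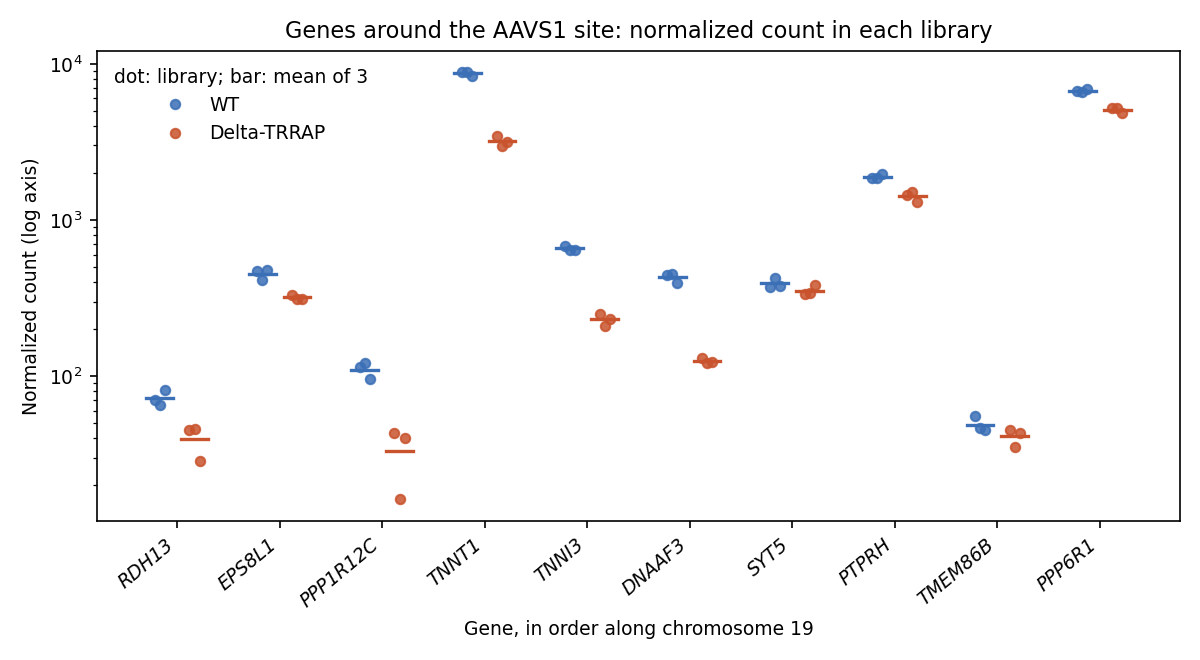
Normalized count (log axis) of the 10 genes in their order along chromosome 19, with 1 dot per library and a bar at the mean of 3, WT in blue and Delta-TRRAP in orange. The separation of the groups is widest from PPP1R12C to DNAAF3, and the SYT5 dots of the groups overlap.

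The listed genes beyond DNAAF3 differed by small amounts. SYT5 (ENSG00000129990.15), a synaptotagmin that senses calcium on secretory vesicles, had normalized counts of 374, 423 and 379.8 in WT and 335, 341 and 382 in Delta-TRRAP. The third Delta-TRRAP library lay within the WT range, and the log2 fold change of -0.13 ± 0.08 (SE) did not pass (edgeR adjusted p = 0.167). PTPRH (ENSG00000080031.10), a receptor-type tyrosine phosphatase, was at 1863, 1850.0 and 1956 in WT and 1437, 1516 and 1311 in Delta-TRRAP. It was lower by an amount under the fold threshold, with a log2 fold change of -0.39 ± 0.06 (SE, edgeR adjusted p = 4.50e-05). PPP6R1 (ENSG00000105063.19), a regulatory subunit of protein phosphatase 6, had 6668, 6638 and 6873 in WT and 5190, 5233 and 4847 in Delta-TRRAP. Its groups did not overlap either, and its log2 fold change of -0.38 ± 0.05 (SE, edgeR adjusted p = 1.06e-05) was close to that of PTPRH.

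TMEM86B (ENSG00000180089.5), which encodes an enzyme that cleaves lysoplasmalogens, had 55.3, 46.3 and 45.2 normalized counts in WT and 45.0, 35.3 and 43.3 in Delta-TRRAP. The groups were separate by a narrow margin, and the log2 fold change of -0.23 ± 0.18 (SE) did not pass (edgeR adjusted p = 0.287). In GENCODE 72.9% of its exonic bases also belong to AC010327.6, a noncoding gene on the same strand, and reads in shared bases are left uncounted, so its level is uncertain. Markers of neurons, where SYT5 is best known, summed to 959.7 to 1045 per WT library and 1001 to 1029 per Delta-TRRAP library. Among the 3 tested, GAD1 was called lower (log2 fold change -1.24) and SYT1 called higher (1.91). At an unadjusted p under 0.05 (edgeR), 1 was lower and 2 were higher. For epithelium, a usual site of PTPRH and EPS8L1, the sums were 23955 to 24721 and 24657 to 26792. Among the 5 tested, EPCAM was called lower (log2 fold change -1.54) and VIL1 called higher (2.24). At an unadjusted p under 0.05 (edgeR), 1 was lower and 4 were higher, among them KRT18 (0.67) and KRT19 (0.88). Fibroblast markers, of which COL1A2 was called higher, summed to 32.8 to 57.5 for WT and 899.8 to 942 for Delta-TRRAP. Most of the Delta-TRRAP sum was COL1A2, with mean normalized counts of 1.63 in WT and 867.9 in Delta-TRRAP. COL1A1 (28.9 and 29.8) and DCN (11.7 and 8.86) were tested and not called. COL3A1, too sparse to test, had means of 0.684 and 9.28, and LUM and PDGFRA had no counts. The part of these differences in the results was not tested.

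On the other side of PPP1R12C the 2 listed genes beyond its 3′ end were lower by amounts that stayed under the fold threshold. EPS8L1 (ENSG00000131037.15), a relative of the actin regulator EPS8, had normalized counts of 474, 409.9 and 476 in WT and 331, 314 and 314 in Delta-TRRAP. The groups were separate, and the log2 fold change was -0.48 ± 0.08 (SE, edgeR adjusted p = 7.23e-05). RDH13 (ENSG00000160439.16), a mitochondrial retinol dehydrogenase, had 70.7, 65.6 and 81.1 in WT and 45.0, 45.8 and 28.5 in Delta-TRRAP. Its log2 fold change was -0.83 ± 0.19 (SE, edgeR adjusted p = 0.00129), and it ranged from -0.94 to -0.64 when single libraries were left out. Over the 10 genes the groups did not overlap for 9, with Delta-TRRAP below. Of all genes tested, 71.1% had groups that did not overlap, 35.1% with Delta-TRRAP below.

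Counts of neighbouring genes were also compared inside each library, since a ratio of 2 genes in 1 library is free of any scaling between libraries. The sharpest step was between DNAAF3 and SYT5. The log2 ratio of DNAAF3 to SYT5 lay between 0.05 and 0.24 for WT and between -1.64 and -1.36 for Delta-TRRAP, a shift of -1.63. A step of the opposite sense lay between EPS8L1 and PPP1R12C, whose log2 ratio lay between 1.77 and 2.32 for WT and between 2.95 and 4.27 for Delta-TRRAP, a shift of 1.35. Between TNNT1 and TNNI3 the ratio moved little, from 3.69 to 3.79 among WT libraries and from 3.76 to 3.82 among Delta-TRRAP libraries, a shift of 0.07. Of 9 neighbouring pairs, the groups did not overlap for 4, which were the 2 steps above, TNNI3 to DNAAF3 (shift 0.27) and RDH13 to EPS8L1 (shift -0.39). Each of these 4 had a two-sided exact permutation p of 0.1, the smallest that 3 against 3 libraries allow, and 0.225 after Benjamini-Hochberg adjustment over the 9 pairs, so no pair could reach 0.05. Neighbouring pairs elsewhere in the genome were not compared, so how common such a separation is was not tested.

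**Figure D2:**
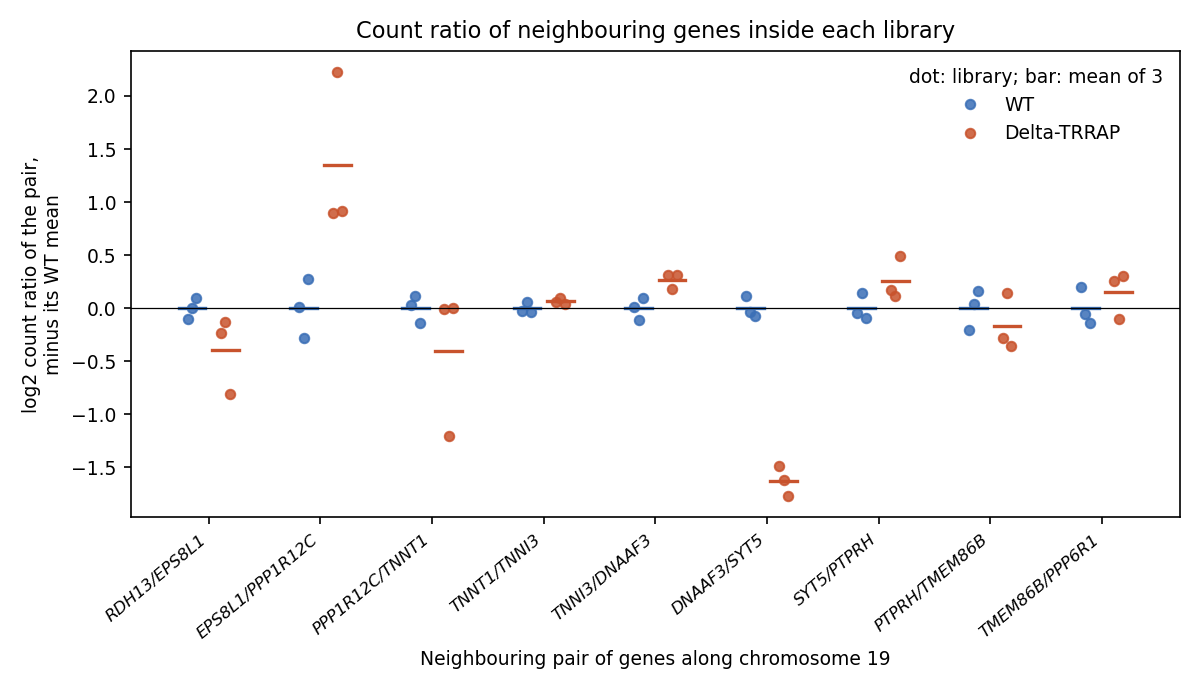
Difference of the log2 count ratio of each neighbouring pair from its WT mean, with 1 dot per library and a bar at the mean of 3. Delta-TRRAP libraries lie above WT for EPS8L1 over PPP1R12C and far below WT for DNAAF3 over SYT5, the ends of the run of called genes among those studied.

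The wider neighbourhood was taken as every gene whose start lay within 500 kb of the PPP1R12C start. Of 26 such genes tested besides the 10, 2 were called lower (7.69%) and 1 higher. By the adjusted p alone 14 were lower and 4 higher, where 27.6% of all genes tested were lower and 30.7% higher. The median log2 fold change of the 26 was -0.48. The median was -0.23 over the 738 genes tested on the long arm and -0.13 over the 1328 of the whole chromosome, of which 10.6% and 8.36% were called lower. Of the 13 neighbours whose normalized count averaged 100 or more, edgeR called 0, and 10 were lower and 2 higher by the adjusted p. Of the 11462 genes tested at that level, 5.93% were called lower, so for calls 0 of 13 is close to the background. By the adjusted p alone 4591 of the 11462 were lower and 3197 higher. The median log2 fold change was -0.50 for the 13 neighbours and -0.09 for the 11462 genes.

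The nearest abundant neighbour towards the centromere was NLRP2, a sensor gene of the innate immune system, which was higher at 0.58 ± 0.06 on the log2 scale (SE, edgeR adjusted p = 2.93e-07). Towards the telomere came HSPBP1, a cochaperone gene of HSP70, at -0.71 ± 0.06, and BRSK1, a kinase gene of neuronal polarity, at 0.38 ± 0.08 (log2 fold change and SE). KMT5C, which encodes a histone H4 methyltransferase, had a log2 fold change of -0.45 ± 0.07 and RPL28, a ribosomal protein gene, -0.50 ± 0.05 (SE). These 4 passed the adjusted p of edgeR, the weakest at 0.000781 for BRSK1. Larger falls, still under the fold threshold, also lay beyond DNAAF3. The noncoding gene AC010327.7, between PTPRH and TMEM86B, was at -0.84 ± 0.15 (log2 fold change and SE, edgeR adjusted p = 0.00011). Farther out, UBE2S was at -0.81 ± 0.05 (edgeR adjusted p = 2.36e-09) and ISOC2 at -0.86 ± 0.06 (edgeR adjusted p = 1.12e-08). By the adjusted p, 14 of the 26 neighbours were lower and 4 higher. The called genes farther out were sparse. COX6B2, a testis form of a cytochrome c oxidase subunit, had 27.1 ± 9.58 normalized counts in WT and 7.58 ± 1.73 in Delta-TRRAP, and the kinase gene SBK3 had 3.96 ± 2.47 and 18.7 ± 5.33 (SD, n = 3 each).

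**Figure D3:**
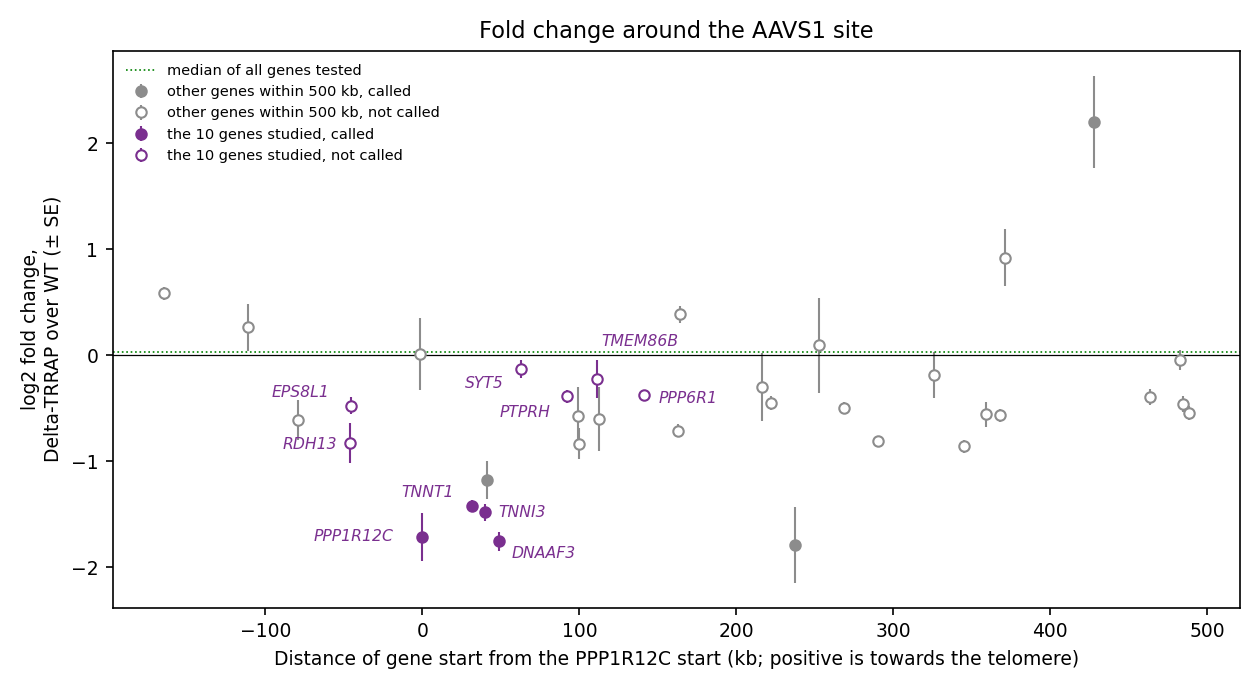
Log2 fold change of Delta-TRRAP over WT (± SE) against the distance of each gene start from the PPP1R12C start, for the 10 genes in purple and the other tested genes within 500 kb in grey, with called genes filled. PPP1R12C, TNNT1, TNNI3 and DNAAF3 lie between -1.76 and -1.42, below every other gene plotted except COX6B2 at -1.79.

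An antisense gene across DNAAF3 was lower as well. AC010327.4 (ENSG00000267577.1, named DNAAF3-AS1 in the newer annotation) is a long noncoding RNA on the plus strand from 55158939 to 55177540, across DNAAF3 and into SYT5. Its normalized counts were 127, 93.6 and 131 in WT and 46.0, 43.9 and 63.4 in Delta-TRRAP. The groups did not overlap, with a log2 fold change of -1.18 ± 0.18 (SE, edgeR adjusted p = 2.57e-05), and it was the other gene called lower within 500 kb besides COX6B2. Counting used strand, so its reads are kept apart from those of DNAAF3. AC010327.8, on the plus strand across the start of PPP1R12C, was sparse, with 11.1 ± 1.35 in WT and 11.0 ± 2.73 in Delta-TRRAP (SD, n = 3 each; edgeR adjusted p = 0.982). AC010327.6, which shares bases with TMEM86B and PPP6R1, had 24.2 ± 6.23 and 15.5 ± 4.99 (SD, n = 3 each; edgeR adjusted p = 0.0872). AC010327.2 shares exonic bases with TNNI3 (24.4% of its exon) and DNAAF3 (14.5%) on their strand, and reads in those bases are left uncounted for all 3 genes in both groups, so its count of 0 says nothing of its level.

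Levels were compared between genes per length of exon, as TPM, the count per exon length scaled to the same total in every library. TNNT1 led with 389.9 TPM in WT and 151 in Delta-TRRAP, above 98.2% and 94.5% of the genes tested. PPP6R1 followed at 96.9 and 77.1 TPM, then PTPRH at 41.4 and 32.8 and TNNI3 at 30.7 and 11.3. DNAAF3 (12.4 and 3.78 TPM) stood above EPS8L1 (8.08 and 5.99) and SYT5 (7.19 and 6.78) in WT and below both in Delta-TRRAP. TMEM86B (2.17 and 1.92), PPP1R12C (1.34 and 0.421) and RDH13 (0.802 and 0.465) were the lowest. Exon lengths include bases shared with another gene on the same strand, where reads are left uncounted, so TPM can be understated. This share was 72.9% for TMEM86B, whose rank is therefore uncertain, 24.4% for TNNI3 and 14.5% for DNAAF3. PPP1R12C lay above 28.9% of the genes tested in WT and above 9.58% in Delta-TRRAP, where it was level with RDH13 within the spread between libraries. EPS8L1 and SYT5 were also close in WT, at 8.08 ± 0.651 and 7.19 ± 0.539 TPM (SD, n = 3 each).

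Relatives and partners of the 10 genes that lie elsewhere were examined as a list written from general knowledge. Of 73 found, 48 were tested, of which 3 were called lower (6.25%) and 6 higher, with a median log2 fold change of -0.09. Over all genes tested, 6.08% were called lower and 16.5% higher, so these counts do not exceed the background by much in either direction. In the myosin phosphatase group, edgeR called 0 of 12 tested lower (6 at an unadjusted p under 0.05) and 1 higher. PPP1R12A, the main myosin-binding subunit, had 5556 ± 156 normalized counts in WT and 3741 ± 154 in Delta-TRRAP (SD, n = 3 each), a log2 fold change of -0.55 (edgeR adjusted p = 2.57e-07). PPP1R12B did not pass (-0.02 ± 0.10, SE, edgeR adjusted p = 0.863), and the catalytic gene PPP1CB was lower by a small amount (-0.23 ± 0.05, SE, edgeR adjusted p = 0.00103). MYLK, the kinase that opposes the phosphatase on myosin light chains, rose from 44.6 ± 8.96 to 248 ± 35.8 normalized counts (SD, n = 3 each).

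Of the 10 other troponin and tropomyosin genes listed, 4 were abundant enough to test, all tropomyosins, and edgeR called 0 of them (3 were lower at an unadjusted p under 0.05). In the protein phosphatase 6 group the catalytic gene PPP6C (0.19 ± 0.05) and the subunit gene PPP6R2 (0.54 ± 0.05) were higher on the log2 scale, PPP6R3 was at -0.14 ± 0.06 without passing, and the ankyrin subunit gene ANKRD28 fell by 1.24 ± 0.05 (SE). Of 8 dynein assembly factors tested, LRRC6 was called higher and 0 were called lower by edgeR. At an unadjusted p under 0.05, 3 were lower and 2 higher. The lower ones included RUVBL1 (log2 fold change -0.44) and RUVBL2 (-0.93), which the paper also places in the TIP60 complex. Synaptotagmin genes went both ways, with SYT10 falling by 2.41 and SYT1 rising by 1.91 on the log2 scale. EPS8L2, a relative of EPS8L1, fell by 1.07 ± 0.12 (SE). TMEM86A, the paralog of TMEM86B, rose from 18.4 ± 1.01 to 204 ± 21.2 normalized counts (SD, n = 3 each), the largest fold change among the 48 tested relatives. The edgeR adjusted p of the 9 called relatives ranged from 1.82e-11 to 7.89e-06.

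**Figure D4:**
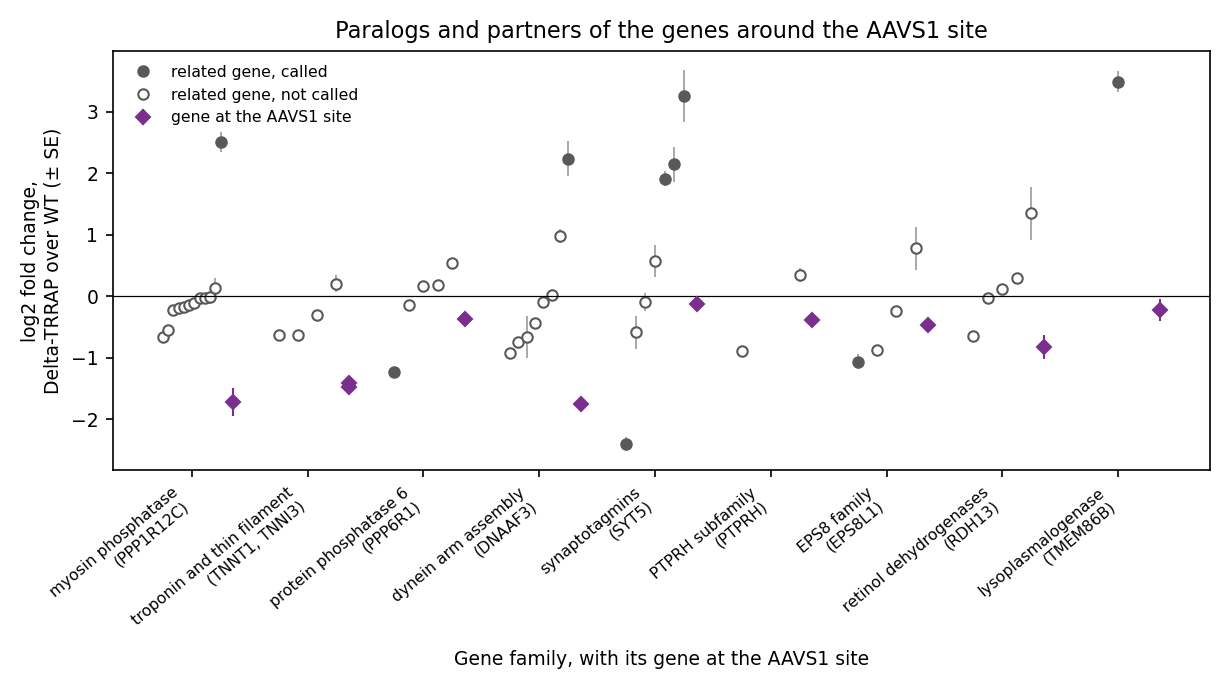
Log2 fold change of Delta-TRRAP over WT (± SE) for tested relatives and partners by family (circles, filled where called) beside the gene or genes of that family at the AAVS1 site (purple diamonds). The relatives of PPP1R12C, TNNT1, TNNI3 and DNAAF3 lie above these genes.

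Over the 6 libraries, the genes whose log2 CPM was most like that of PPP1R12C were COX19 (r = 0.998), RASSF1 (0.997) and ETHE1 (0.997) among the 11462 genes averaging 100 normalized counts or more. Their own log2 fold changes were only -0.25, -0.36 and -0.49. This r is a description over 6 points, which all genes share with their depth and scaling. For TNNT1, TNNI3 and DNAAF3 it was 0.930, 0.933 and 0.914, and for EPS8L1, PPP6R1, PTPRH and SYT5 it was 0.864, 0.837, 0.756 and 0.720. RDH13 and TMEM86B averaged under 100 normalized counts and were not compared.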

How the data were processed

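Poly(A) RNA of 6 K562 libraries was sequenced. Per the labels and methods, the authors aligned reads to hg38 with STAR, kept uniquely mapping reads and deposited the count of reads per gene, made with HTSeq 2.0.2 (reverse strand, union mode, so that reads shared by overlapping genes are not counted). A deposited table of normalized values, with 3 further per-sample columns, and the authors' table of fold changes and p-values were not used. Groups and replicate numbers came from the sample titles. The methods call the replicates biological, and p-values measure the spread between these libraries of 1 clone per group.

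The quasi-likelihood F test of edgeR 4.0.16 (R 4.3.3, TMM scaling, group as the only term, Benjamini-Hochberg adjustment) was run on every gene whose normalized count averaged 5 or more. Calls needed an adjusted p up to 0.01 together with a 2-fold change or more. To normalize, each library's counts were divided by its TMM-scaled size over the geometric mean size. Errors are SD over 3 libraries or SE of log2 fold changes. Chi-square per degree of freedom was 5.43 to 17.5 between libraries of a group, more than counting error alone would give if 1 library had been sequenced again. It cannot tell separate cultures from separate preparations of the same culture. Positions and exon lengths came from GENCODE 44 on GRCh38, matched by gene ID for 19041 of 19114 tested genes, while the counts rest on an older release. The test was checked on simulated counts. Named genes were the 10 members, EP400, the nearest 4 abundant neighbours per side (1 found towards the centromere), genes overlapping a member, the 3 largest called falls and rises within 500 kb, called relatives with a mean count of at least 100, 6 relatives of PPP1R12C and PPP6R1 and the 3 genes most like PPP1R12C. LRRC6, RUVBL1, RUVBL2, AC010327.7, UBE2S, ISOC2 and markers of other cells were named after their values were seen. The members and lists were chosen with earlier results of these data known. Alternatives were DESeq2 1.42.0, limma-voom (limma 3.58.1), other scalings, filters and thresholds, a replicate block and leaving out each library. The fit without mitochondrial genes was added after seeing the data.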

Additional observations from a re-analysis of the deposited data

How the results depend on the processing

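PPP1R12C, TNNT1, TNNI3 and DNAAF3 were called lower, and the other 6 genes were not called, under edgeR, DESeq2, limma-voom, RLE, upper quartile and library size scaling, both other count filters, without mitochondrial genes and without any one library. TMEM86B fell under the filter of 50. With single libraries left out, the log2 fold change ran from -1.96 to -1.38 for PPP1R12C, -1.48 to -1.37 for TNNT1, -1.54 to -1.42 for TNNI3 and -1.82 to -1.73 for DNAAF3. SYT5 turned to 0.002 with library size alone. By the adjusted p alone, 8 of the 10 genes were lower, 14 genes within 500 kb were lower and 4 higher, and 18 relatives were lower and 10 higher, since the rule was looser. At a fold change of 1.5, 5 of the 10 genes were lower, RDH13 being added, 7 genes within 500 kb were lower and 2 higher, and 11 relatives were lower. Within 500 kb, 2 genes were called higher with upper quartile scaling, library size alone or no count filter. With a minimum of 50 the numbers there were 1 lower and 0 higher, since fewer genes were tested (edgeR; 2 were higher at an unadjusted p under 0.05, and DESeq2 and limma-voom each called 1 higher under the usual filter). With the replicate number as a block, PPP1R12C had a log2 fold change of -1.73 and 4 of the 10 genes were called lower. Libraries of the same number did not deviate together, with correlations between -0.0351 and -0.0108 over genes, and they share only a number. PPP1R12C, RDH13 and TMEM86B rest on fewer than 130 reads a library, which limits their precision.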
